A study of Arabidopsis thaliana with 22 samples.

Results

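A set of 234 probe sets changed alike in GL1-GR and GL3-GR seedlings of *Arabidopsis thaliana* 24 h after dexamethasone (DEX) was given, out of 22746 probe sets on the array that are not AFFX controls. They were chosen on the 24 h values themselves. A member had a mean log2 value in DEX plants that was higher than in Mock plants by 0.3 or more in both lines (106 risers), or lower by 0.3 or more in both lines (128 fallers). The higher of the DEX and Mock means had to be 5 or more in each line. *WRKY53*, *CHI* (AT2G43570) and AT5G03350 were left out by name, and 1 of these 3, *CHI*, met the rule. Because the 24 h contrasts chose the members, the 24 h values are given as a description, and only the 4 h samples were tested.

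The MYB protein GL1 and the bHLH protein GL3 bind one another and, with the WD40 protein TTG1, commit epidermal cells to becoming trichomes, the hairs of the leaf. Their complex switches on *GL2* and *TTG2* in these cells, and also the small R3 MYB proteins that move to neighbouring cells and block that fate. Fused to the hormone-binding part of the glucocorticoid receptor (GR), a factor stays out of the nucleus until a steroid such as DEX is given. The comparison across both lines asks which probe sets moved the same way when either factor was activated.

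The lines were pGL1::GL1-GR in *gl1* and pGL3::GL3-GR in *gl3 egl3*, per the study's methods. Each fusion was driven by the promoter of its own gene, and every plant on the 22 arrays carried one. Seedlings received DEX or, as Mock, ethanol, the solvent of DEX, and green tissues were collected 4 h and 24 h later. The groups thus were GL1-GR DEX and Mock at 4 h and at 24 h, and GL3-GR DEX and Mock at 4 h, with 3 arrays each, and GL3-GR DEX and Mock at 24 h, with 2 arrays each. Many seedlings were pooled for each RNA extraction. Samples of a group came from separate plant material according to the study's methods; their labels differ by a number alone. Plants without a GR fusion were not among the arrays, and activation of a fusion and DEX itself cannot be told apart. In whole green tissue, fewer cells of a type and less RNA per cell cannot be told apart either.

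The mesophyll and root markers matched the label of green tissue as far as they went. Only 1 of 4 genes of each of these lists had a named probe set, so the check is limited. The mesophyll gene *RCA*, Rubisco activase, had group means of 11.04 to 13.62 on the log2 scale, while the root hair gene *EXPA7* lay between 2.15 and 2.34. The trichome genes *GL2* and *TTG2* were near the lowest value in every group, at 2.13 to 2.81 and 2.12 to 2.36. The third trichome gene, *TRY*, one of the R3 MYB inhibitors, was above that at 4 h, with means of 5.06 in DEX and 5.35 in Mock plants of GL1-GR and 4.54 and 5.22 in those of GL3-GR, and had means of 2.64 to 2.99 at 24 h. Array medians ran from 5.96 to 6.06 for GL1-GR at 4 h, from 4.46 to 4.59 for GL1-GR at 24 h, from 3.62 to 3.72 for GL3-GR at 4 h and from 4.68 to 4.72 for GL3-GR at 24 h. The 4 sets of arrays have the form of separate normalizations, so DEX and Mock were compared only within a set.

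Certain arrays carried much of what the rule selected. Of the 106 risers, 64 had their lowest GL1-GR value of 24 h on Mock sample 3, and of the 128 fallers 76 had their highest value there. Among all 10462 probe sets that passed the level condition, 25.5% were lowest and 27.9% highest on this array. The rule itself favours risers with low and fallers with high Mock values, so these shares are not a like baseline. GL1-GR Mock sample 3 also had the lowest mean correlation with the other 5 arrays of its set, 0.993 against 0.995 to 0.997. Without it, 126 of the 234 members still met the rule, 59 risers and 67 fallers. The median GL1-GR change at 24 h was then 0.32 for the 106 risers and -0.32 for the 128 fallers, against 0.43 and -0.42 with all arrays. For 15 risers and 22 fallers the GL1-GR change was no longer in the direction of the rule. Leaving out each of the 10 arrays of 24 h in turn, 21 members met the rule every time, 13 risers and 8 fallers.

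At 24 h, the changes of most members were small and close to the threshold. The smaller of the 2 lines' changes was under 0.4 for 63 risers and 73 fallers. It was 0.5 or more for 22 risers and 18 fallers, and 1 or more for 3 risers and 0 fallers. Among the probe sets that passed the level condition, 517 were higher by 0.3 or more in GL1-GR and 491 in GL3-GR, while 358 and 799 were lower by as much. Another 51 changed in opposite directions, 33 of them higher in GL1-GR and lower in GL3-GR. Without GL1-GR Mock sample 3, 279 probe sets changed alike and 96 in opposite directions. The risers just inside the threshold were 251771_at (0.4961 in GL1-GR and 0.3005 in GL3-GR) and 258536_at (0.41 and 0.3024). Just outside it were 247543_at (0.3638 and 0.2999) and 265991_at (0.3735 and 0.2982). Among fallers, 254120_at (-0.3002 and -0.38) and 255587_at (-0.3004 and -0.4066) lay just inside, and AT4G30800 (-0.3112 and -0.2996) and AT5G63180 (-0.2996 and -0.4931) just outside.

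**Figure D1:**
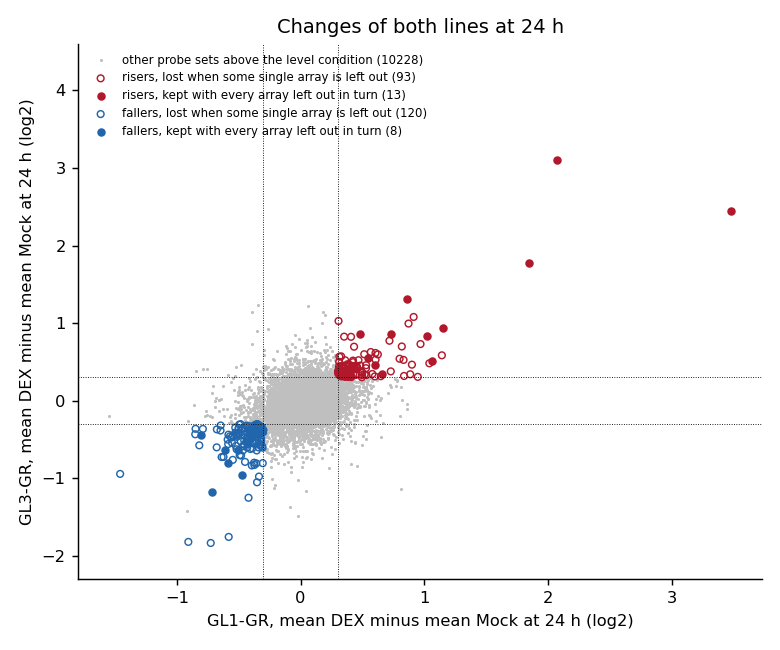
Mean DEX minus mean Mock at 24 h (log2) in GL1-GR (x axis) and GL3-GR (y axis) for all 10462 probe sets that passed the level condition, with dotted lines at 0.3 and -0.3. Filled points are the 13 risers and 8 fallers that met the rule with every array left out in turn; most members crowd at the threshold and 3 risers stand far out.

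Groups that did not overlap were more frequent in GL3-GR, which had only 2 arrays a group. The DEX values of 78 risers all lay above the Mock values in GL3-GR and those of 30 risers did so in GL1-GR, where the shares among all 16349 tested probe sets were 12.6% and 2.75%. Of the fallers, 95 were fully separated in GL3-GR (19.1% of all tested) and 24 in GL1-GR (3.09% of all tested). Both lines separated for 26 risers (0.55% of all tested) and 20 fallers (0.838%). These shares come from the contrast that chose the members, so nothing is read from them.

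**Figure D2:**
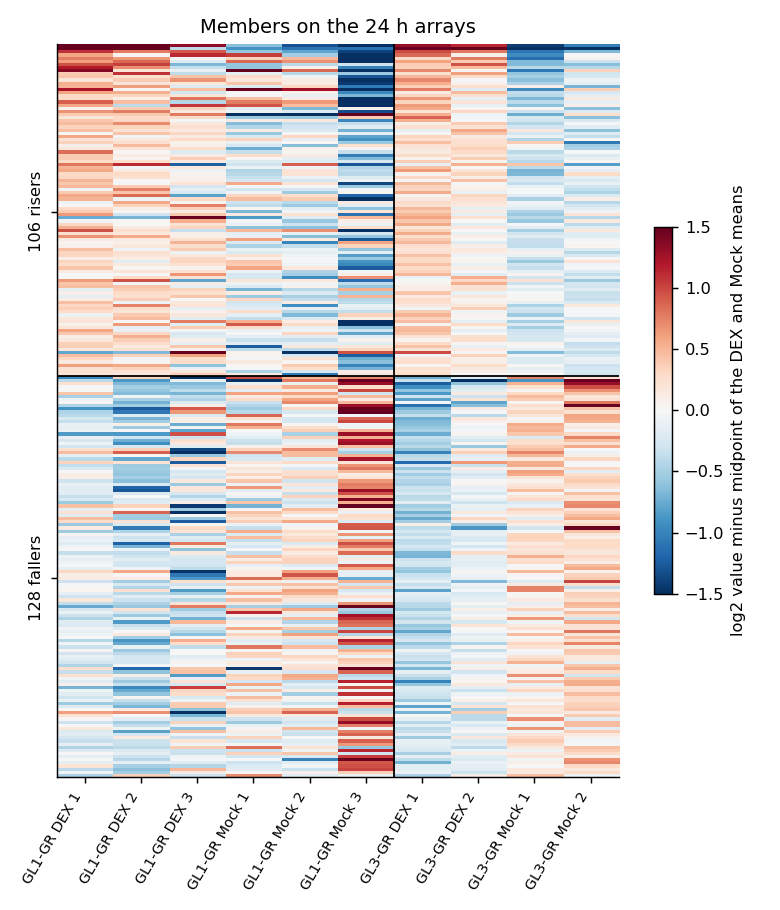
Each of the 234 members (rows, by smaller change within risers and fallers) on the 10 arrays of 24 h (columns), as the log2 value minus the midpoint of the DEX and Mock means of its line. GL1-GR Mock sample 3 holds the deepest colours, low for risers and high for fallers, with 64 risers at their lowest and 76 fallers at their highest there.

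Gene names were available for fewer than 80% of the members, so chromosome, length and class could not be compared. The platform's gene table gave 1 gene for 53 risers and 54 fallers, several genes for 1 and 5, and none for 52 and 69. Probe sets without a single gene are given by their ID. A probe set assigned to several genes cannot be traced to 1 of them.

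Of the risers, 3 stood apart from all other members. Probe set 267238_at had log2 values of 10.12, 9.94 and 9.41 in GL1-GR DEX plants at 24 h, against 7.45, 6.78 and 4.79 in Mock plants. In GL3-GR it had 9.69 and 9.52 in DEX plants, against 6.96 and 7.36 in Mock plants. Every DEX value was above every Mock value of both lines, and the changes were 3.48 and 2.45. Probe set 251438_s_at, which is assigned to several genes, had 8.44, 8.48 and 6.31 in GL1-GR DEX plants and 5.82, 5.60 and 5.60 in Mock plants. In GL3-GR DEX plants it had 9.60 and 9.74, and 6.49 and 6.64 in Mock plants, a change of 3.11 against 2.07 in GL1-GR. Probe set 257654_at was at 11.58, 11.27 and 11.42 in GL1-GR DEX plants, against 9.92, 9.70 and 9.11 in Mock plants. Its GL3-GR values were 11.10 and 10.93 with DEX, against 9.04 and 9.45 with Mock. The next in order, 264375_at and 261663_at, had changes of 1.15 and 0.91 in GL1-GR, which were 0.32 and 0.04 without Mock sample 3, and of 0.93 and 1.08 in GL3-GR.

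Among the 12 leading risers with 1 gene, some had groups that overlapped in GL1-GR and others did not. AT3G22060 encodes a secreted protein related to cysteine-rich receptor-like kinases. It had 10.01, 10.10 and 9.49 in GL1-GR DEX plants at 24 h, against 9.26, 9.15 and 8.01 in Mock plants, and 10.53 and 10.64 in GL3-GR DEX plants, against 10.02 and 10.13 in Mock plants. AT1G75900, a GDSL-type lipase gene, averaged 8.24 ± 0.28 in GL1-GR DEX plants and 7.34 ± 0.17 in Mock plants (SD, n = 3 each), and 7.58 ± 0.21 and 7.11 ± 0.30 in GL3-GR DEX and Mock plants (n = 2 each). No DEX and Mock arrays of AT1G75900 overlapped in either line. AT3G22060 met the rule with each array of 24 h left out, as did AT1G70620 (0.48 in GL1-GR and 0.85 in GL3-GR). The DEX and Mock values of AT1G70620 nevertheless overlapped in GL1-GR, at 5.42, 5.53 and 5.52 with DEX and 4.69, 4.69 and 5.65 with Mock. AT3G50380 had changes of 0.52 and 0.60, and AT1G70420 of 0.53 and 0.46. Without GL1-GR Mock sample 3 the GL1-GR changes were 0.66 for AT3G22060 (1.06 with it), 0.80 for AT1G70620 and 0.31 for AT1G70420.

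For other leading risers, the GL1-GR change lay in Mock sample 3. AT4G25580, a CAP160 protein of the cold and abscisic acid response, had 8.63, 7.43 and 7.14 in GL1-GR DEX plants, against 8.79, 8.11 and 3.39 in Mock plants. AT4G37220, a WCOR413 cold acclimation protein, had 8.94, 7.74 and 8.17 in GL1-GR DEX plants, against 9.19, 8.97 and 3.27 in Mock plants. In both genes 1 Mock value was far below the other two, each of which was above at least 2 of the 3 DEX values. Without that array the GL1-GR changes of AT4G25580 and AT4G37220 were -0.72 and -0.80, against 0.97 and 1.14 with it. *GAT1_2.1*, a class I glutamine amidotransferase, had 10.86, 10.66 and 11.35 in GL1-GR DEX plants and 11.01, 10.68 and 8.77 in Mock plants. Its change was 0.80 in GL1-GR, 0.11 without Mock sample 3, and 0.54 in GL3-GR. *GAT1_2.1* is the 1 gene with 2 member probe sets, and its second, 260743_at, had 0.65 (0.01 without that array) and 0.31. AT1G30700, a berberine bridge enzyme-like oxidase, had 0.63 in GL1-GR, 0.25 without that array, and 0.59 in GL3-GR. *ASPGB1*, which releases ammonium from asparagine, had 0.45 (0.17 without it) and 0.45, and AT1G10140 had 0.46 (0.12 without it) and 0.44.

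Enzymes of amino acid breakdown were looked at as a group, on a list chosen after the values were seen. Lysine, branched-chain amino acids and methionine are broken down in carbon-starved leaves, and electrons from several of these steps reach the mitochondrial chain through ETFQO. Of 13 genes on the list, 10 had a probe set and 3 of these were risers. AT4G33150, the LKR/SDH enzyme that starts lysine breakdown, had 10.24, 10.13 and 9.80 in GL1-GR DEX plants at 24 h, against 9.94, 9.98 and 8.85 in Mock plants. In GL3-GR it had 11.25 and 10.70 with DEX, against 10.43 and 10.47 with Mock. The GL1-GR groups overlapped and the GL3-GR groups did not. *ETFQO* had changes of 0.50 in GL1-GR and 0.36 in GL3-GR, and *MGL*, methionine gamma-lyase, 0.34 and 0.39. Without GL1-GR Mock sample 3 the GL1-GR changes were 0.10 for AT4G33150, 0.32 for *ETFQO* and -0.21 for *MGL*. Over the 10 genes, the changes at 24 h ran from 0.01 to 0.50 in GL1-GR and from -0.20 to 0.52 in GL3-GR.

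The smaller of the 2 lines' changes was under 1 for every faller. AT1G47400 encodes a short peptide of the IRON MAN family, whose members promote iron uptake and are induced when iron is short. It had 5.25, 6.57 and 4.65 in GL1-GR DEX plants at 24 h, against 7.19, 6.72 and 6.93 in Mock plants, and 3.87 and 4.41 in GL3-GR DEX plants, against 5.34 and 4.82 in Mock plants. The groups did not overlap in either line, and the changes were -1.46 and -0.95. AT1G47400 did not meet the rule with each array left out. Without GL3-GR Mock sample 1, the Mock value left was 4.82, under the level of 5. Probe set 259428_at had 7.63, 7.14 and 7.07 with DEX, against 7.90, 8.18 and 7.90 with Mock in GL1-GR, and 7.82 and 8.48 with DEX, against 8.97 and 9.71 with Mock in GL3-GR. AT1G78410, a VQ-motif protein gene, had 7.19, 7.24 and 7.30 in GL1-GR DEX plants and 7.55, 7.66 and 7.93 in Mock plants. In GL3-GR DEX plants it had 8.57 and 8.40, and 9.36 and 9.54 in Mock plants. AT1G78410 and 259428_at separated fully in both lines and met the rule with each array left out. AT1G19960 (-0.80 in GL1-GR and -0.44 in GL3-GR), named after its values were seen, also met it each time, but its GL1-GR groups overlapped.

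*PGM* (AT1G78050), a phosphoglycerate mutase, had 5.77, 5.36 and 5.38 in GL1-GR DEX plants at 24 h, against 6.12, 6.45 and 5.97 in Mock plants. Its GL3-GR values were 4.45 and 5.46 with DEX, against 5.64 and 5.48 with Mock. The groups did not overlap, but in GL3-GR their nearest values lay next to each other. AT3G15460, a Brix-domain protein of ribosome assembly, had changes of -0.59 and -0.50. AT1G55210, a dirigent protein gene, had -0.64 (-0.30 without GL1-GR Mock sample 3) and -0.73. AT5G55450, of the lipid transfer protein family, had -0.55 (-0.26) and -0.55, and *AUR2*, an Aurora kinase that acts in cell division, had -0.82 (-0.28) and -0.58. For AT3G47380, a pectin methylesterase inhibitor, the GL1-GR values spanned 6.54, 6.96 and 3.98 with DEX and 6.78, 6.53 and 5.56 with Mock. Its change of -0.47 (-0.83 without Mock sample 3) thus lay within the spread of its arrays. AT1G65490 had -0.52 and -0.63, and AT1G30960 had -0.46 and -0.59.

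Some leading fallers rested on GL1-GR Mock sample 3 or on 1 GL3-GR array. Probe set 267567_at had 5.78, 5.33 and 6.09 in GL1-GR DEX plants, against 4.03, 6.97 and 8.93 in Mock plants. In GL3-GR it had 5.88 and 4.71 with DEX, against 5.33 and 8.91 with Mock. The groups overlapped in both lines, and the GL1-GR change of -0.91 was 0.23 without Mock sample 3. Probe set 257382_at had changes of -0.73 (-0.25 without that array) and -1.84. *DRT100*, a leucine-rich repeat protein gene named from a DNA damage screen, had -0.48 (0.01) and -0.71, and AT5G01015 had -0.49 (0.03) and -0.70.

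Among the other fallers, AT5G28630 had 24 h changes of -0.45 in GL1-GR and -0.79 in GL3-GR, and *UGT78D1*, a flavonol rhamnosyltransferase, had -0.85 (-0.42 without GL1-GR Mock sample 3) and -0.44. The organelle transcripts *ndhJ*, of the chloroplast NDH complex, and *cox2*, of mitochondrial cytochrome oxidase, had -0.43 and -0.48, and -0.68 and -0.37. For *ndhJ* the GL1-GR change was -0.27 without Mock sample 3, and its GL3-GR groups overlapped, at 8.42 and 8.29 with DEX and 8.38 and 9.29 with Mock. Of 18 direct targets of GL3 and GL1 named by the study, 14 had a probe set, and 0 of them were members. Not all of these could be members. At 24 h the means of *GL2*, *ETC1*, *TTG2*, *TRY*, *SCL8* and *MYC1* were under the level of 5 in both lines. Those of *CPC* were under it in GL3-GR. The 11 targets that were tested, with *ETC1*, *CPC*, *TRY* and *SCL8* among them, had 24 h changes of -0.20 to 0.22 in GL1-GR and -0.19 to 0.25 in GL3-GR. No named probe set of the other lists (defence, jasmonate, clock, photosynthesis, hypoxia, cold and touch, auxin, nutrients and cell type markers) was a member either. Some genes of these lists, such as the clock gene *GI*, were under the level of 5 at 24 h and could not be members. Genes of these lists could not be recognised among members without a gene name. Most of those lists had 0 to 3 genes with a named probe set, so they say little about these pathways.

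**Figure D3:**
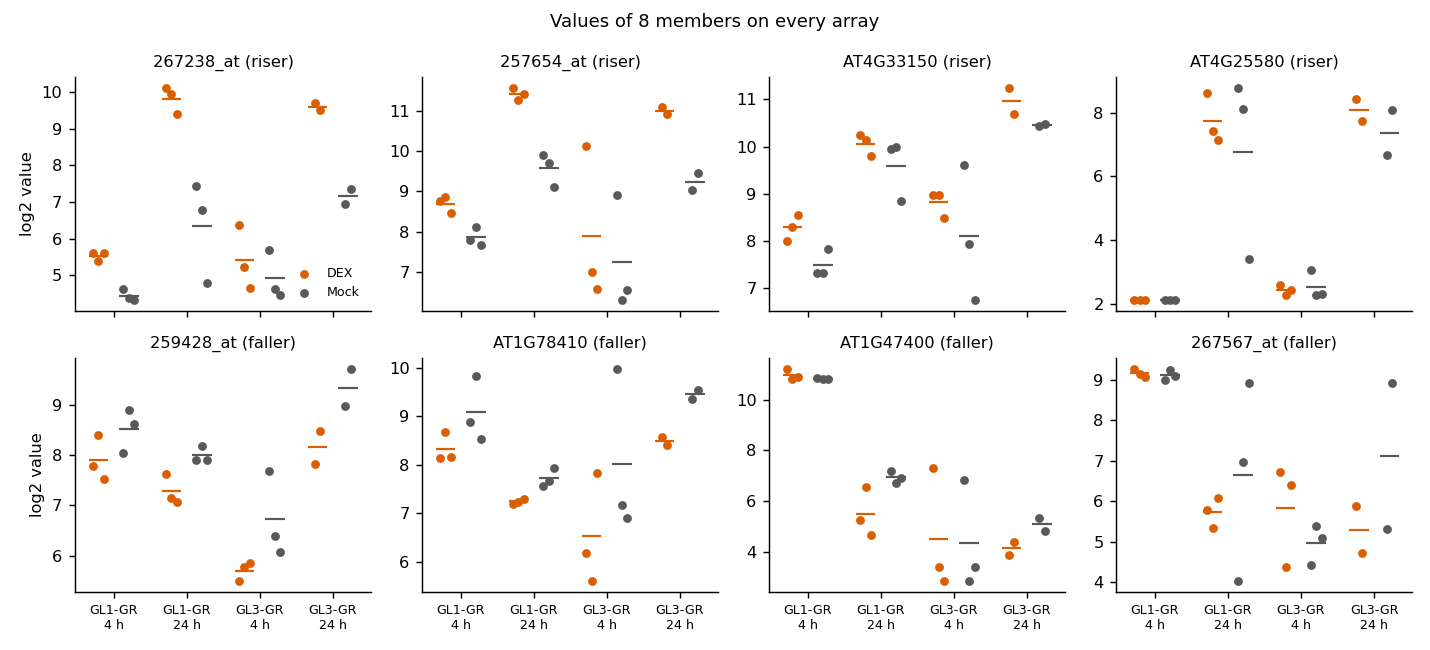
Log2 values of 8 members on every array, DEX (orange) left of Mock (grey) in each line and time, with lines at the group means. Probe sets 267238_at and 257654_at are higher with DEX on all arrays of 24 h, while the AT4G25580 mean of GL1-GR Mock plants is pulled down by 1 array at 3.39.

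The 4 h arrays are other samples than those that chose the members, and were used to ask whether the same shifts were present 4 h after treatment. No member passed the test at 4 h: limma, fitted to the 6 arrays of a line over 16349 tested probe sets, called 0 of the 234 members in either line at an adjusted p under 0.05. The background was as low, with 0.00612% of all tested probe sets called in GL1-GR (1 probe set) and 0% in GL3-GR. At an unadjusted p under 0.05, 23 members passed in GL1-GR (9.83%, with 7.29% of all tested) and 13 in GL3-GR (5.56%, with 3.41%). In the direction of their 24 h change, 7 risers and 5 fallers passed so in GL1-GR, where 4.73% of all tested passed as higher and 2.56% as lower. In GL3-GR these were 0 risers and 6 fallers, with 0.795% and 2.61% of all tested. The 5 fallers that passed as lower in GL1-GR were 3.91%, with 2.56% of all tested. More of all tested probe sets passed as higher than as lower in that line. Against the 24 h direction, 4 risers were lower (3.77%, with 2.56%) and 7 fallers higher (5.47%, with 4.73%) in GL1-GR. In GL3-GR these were 4 risers (3.77%, with 2.61%) and 3 fallers (2.34%, with 0.795%). A fit of all 22 arrays takes 1 spread per probe set from all sets. That spread is too small for GL3-GR at 4 h, where the residual SD was 0.548, against 0.188 to 0.285 in the other sets. With that limit, the fit called 2 fallers in GL3-GR at 4 h, AT5G28630 and 255284_at. These were 0.855% of the 234 members, near the 0.893% of all tested probe sets that the same fit called in GL3-GR, and 1.56% of the fallers, with 0.697% of all tested called as lower. In GL1-GR this fit called 0 members and 0.0245% of all tested.

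As a group the risers were hardly displaced at 4 h. In GL1-GR their median change was 0.02, and in GL3-GR 0.06, beside 0.00 and -0.06 over all tested probe sets. In GL1-GR 63 of 106 risers were above 0 (59.4%, with 53% of all tested), and in GL3-GR 59 (55.7%, with 41.2%). A change of 0.3 or more was seen for 14 risers in GL1-GR (13.2%, with 5.63% of all tested) and 27 in GL3-GR (25.5%, with 12.3%). Changes of -0.3 or less were seen for 8 risers in GL1-GR (7.55%, with 5.86%) and 26 in GL3-GR (24.5%, with 25.2%). In GL1-GR at 4 h, 14 risers were within 0.5 of the lowest value on all 6 arrays, where values have no order. These 14 risers are kept in every count of risers at 4 h, though the signs of their GL1-GR changes carry no meaning. AT4G25580, AT4G37220 and *GAT1_2.1* were among these, at 2.11 to 2.35 on every GL1-GR array of 4 h.

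Fallers had a median 4 h change of 0.00 in GL1-GR and -0.27 in GL3-GR, beside 0.00 and -0.06 over all tested. In GL3-GR 59 of 128 fallers were lower by 0.3 or more at 4 h (46.1%, with 25.2% of all tested), and 18 were higher by as much (14.1%, with 12.3%). In GL1-GR 17 were lower by 0.3 or more (13.3%, with 5.86%) and 12 higher (9.38%, with 5.63%). The GL3-GR shift was not the same on all arrays. The median of the fallers, relative to the Mock mean, was 0.01, -0.51 and -0.40 on the DEX arrays of samples 1 to 3 and -0.20, 0.07 and 0.12 on the Mock arrays. DEX sample 1 thus lay among the Mock arrays and the other DEX arrays below them. All probe sets above the level condition moved as well, with medians of 0.15, -0.16 and -0.26 on those DEX arrays. Without DEX sample 1 the median change of the fallers was -0.50, and that of the risers -0.24, against 0.06 with it. Without Mock sample 1 the riser median was 0.28. The sign of the riser median in GL3-GR therefore depended on which array was left out.

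**Figure D4:**
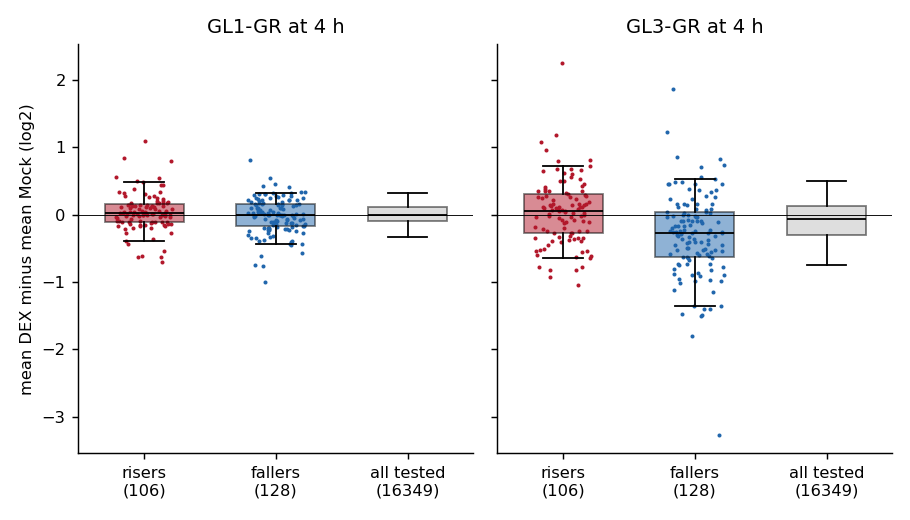
Mean DEX minus mean Mock at 4 h (log2) in GL1-GR (left) and GL3-GR (right) for the 106 risers, the 128 fallers and all 16349 tested probe sets. Boxes give the median and quartiles and whiskers the 5th and 95th percentiles, with a point for each member; the fallers in GL3-GR sit lowest, at a median of -0.27, and overlap the others widely.

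**Figure D5:**
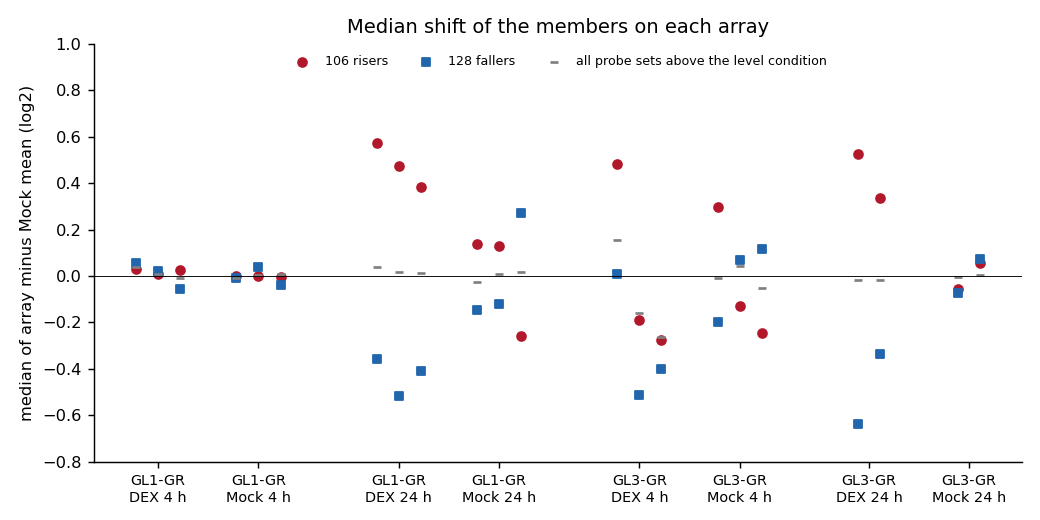
Median over the risers (circles), the fallers (squares) and all probe sets above the level condition (dashes) of the log2 value on each array minus the Mock mean of its line and time, with DEX left of Mock. At 24 h the rule fixes this pattern, while at 4 h the GL1-GR arrays lie within 0.06 of 0 and sample 1 of GL3-GR stands apart in both treatments.

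Taking both lines together, 35 of 106 risers were above 0 at 4 h in both (33%, with 22.1% of all tested). Below 0 in both were 19 (17.9%, with 28%), and 52 differed in sign. The 14 risers near the lowest value in GL1-GR are included in these counts. Of the fallers, 49 were below 0 in both lines (38.3%, with 28%), 21 above 0 in both (16.4%, with 22.1%) and 58 differed in sign. A change of 0.3 or more in the direction of 24 h was present in both lines at 4 h for 5 risers (4.72%, with 0.893% of all tested) and 10 fallers (7.81%, with 2.43%). The reverse, 0.3 or more against that direction in both lines, was found for 1 riser (0.943%, with 2.43%) and 4 fallers (3.12%, with 0.893%). That riser was AT5G48430, and the fallers were 257382_at, 259561_at, 263852_at and AT2G41090, a calmodulin-like protein gene, all named after their values were seen. None of these probe sets passed the adjusted test at 4 h.

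The 5 risers of this kind were 267238_at, 257654_at, 259925_at, AT4G33150 and *PDF1.2b*, a jasmonate-responsive plant defensin whose probe set (257365_x_at) can cross-hybridize with related defensins. The DEX and Mock values of *PDF1.2b* overlapped at 4 h in both lines and at 24 h in GL1-GR. In GL3-GR at 4 h they were 6.23, 4.24 and 7.86 with DEX, against 2.64, 7.50 and 4.66 with Mock. Probe set 267238_at had 5.61, 5.40 and 5.60 in GL1-GR DEX plants at 4 h, against 4.63, 4.37 and 4.33 in Mock plants. Its change of 1.09 (SE 0.11) had an adjusted p of 0.351 by limma, the lowest of any member in GL1-GR. In GL3-GR at 4 h it had 6.38, 5.23 and 4.66 with DEX, against 5.69, 4.62 and 4.45 with Mock, and the groups overlapped. Probe set 257654_at had 8.75, 8.87 and 8.45 in GL1-GR DEX plants at 4 h, against 7.80, 8.10 and 7.67 in Mock plants, and overlapping groups in GL3-GR. AT4G33150 had 7.99, 8.30 and 8.56 in GL1-GR DEX plants, against 7.32, 7.31 and 7.82 in Mock plants, with no overlap. In GL3-GR the AT4G33150 values were 8.98, 8.98 and 8.48 with DEX, against 9.62, 7.93 and 6.74 with Mock, so the Mock arrays spanned all DEX values.

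The 10 fallers of this kind included 6 with 1 gene. AT1G78410 had 8.14, 8.67 and 8.15 in GL1-GR DEX plants at 4 h, against 8.88, 9.82 and 8.53 in Mock plants, and 6.18, 5.60 and 7.82 in GL3-GR DEX plants, against 9.97, 7.16 and 6.89 in Mock plants. The groups overlapped in both lines, with changes of -0.76 and -1.48. Probe set 259428_at had -0.61 and -1.01, and in GL3-GR its DEX values (5.50, 5.78 and 5.85) were all below its Mock values (7.69, 6.40 and 6.08). The others with a gene were AT5G52750 (-0.38 in GL1-GR and -0.63 in GL3-GR at 4 h), AT1G63310 (-0.33 and -0.68), AT1G61360 (-0.43 and -0.62), AT2G34510 (-0.35 and -0.45) and AT1G56060 (-0.74 and -0.88). In GL3-GR, AT1G56060 had 7.73, 5.59 and 6.37 with DEX, against 11.24, 5.51 and 5.59 with Mock. AT5G52750 had 7.54, 7.53 and 7.19, against 9.55, 7.54 and 7.06. Both changes thus rested on Mock sample 1, which for AT1G63310 and AT2G34510 was the lowest Mock array. The 24 h change of AT2G34510 in GL1-GR was 0.04 without Mock sample 3. AT1G61360 encodes an S-locus lectin-type receptor kinase.

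Counted by arrays that did not overlap, 14 risers were higher with DEX in GL1-GR at 4 h (13.2%, with 8.19% of all tested) and 3 in GL3-GR (2.83%, with 2.7%). Lower with DEX were 8 risers in GL1-GR (7.55%, with 4.46%) and 5 in GL3-GR (4.72%, with 5.26%). Of the fallers, 6 were lower in GL1-GR (4.69%, with 4.46%) and 10 in GL3-GR (7.81%, with 5.26%), while 11 (8.59%, with 8.19%) and 4 (3.12%, with 2.7%) were higher. By this count the fallers' shares were near the background in GL1-GR. In both lines at once, 1 riser and 1 faller were separated in the 24 h direction (0.943% and 0.781%, with 0.214% and 0.245% of all tested).

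The riser was 259925_at, at 10.40, 10.23 and 10.09 in GL1-GR DEX plants at 4 h, against 9.50, 9.88 and 9.90 in Mock plants. In GL3-GR at 4 h it had 8.44, 4.24 and 5.31 with DEX, against 3.02, 3.96 and 4.24 with Mock, so the nearest values of the groups were equal to 2 decimals. At 24 h its groups overlapped in both lines. The faller was AT1G18390, a receptor-like kinase gene, at 7.86, 7.94 and 7.91 in GL1-GR DEX plants, against 8.30, 7.99 and 8.04 in Mock plants. In GL3-GR at 4 h it had 6.63, 6.52 and 6.45 with DEX, against 7.01, 6.88 and 7.20 with Mock, a change of -0.50 (SE 0.14). The named riser AT2G28570 separated at 4 h in both lines against its 24 h direction, with changes of -0.09 in GL1-GR and -0.55 in GL3-GR.

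Some leading members had 4 h changes opposite to those of 24 h. AT1G30700 was lower with DEX in GL1-GR at 4 h, at 6.68, 6.84 and 6.85 against 7.30, 7.61 and 7.35 with Mock, a change of -0.63 (adjusted p 0.424 by limma). AT1G47400, the leading faller, had 4 h changes of 0.16 in both lines (SE 0.11 in GL1-GR and 1.60 in GL3-GR). Its DEX and Mock values overlapped in both, so no reversal is read from them. The faller AT5G28630, in contrast, was lower at 4 h as at 24 h. It had the largest 4 h change of any member, -3.27 (SE 0.64) in GL3-GR, with an adjusted p of 0.960 by limma. Its values there were 4.21, 3.02 and 3.80 in DEX plants, against 8.15, 5.93 and 6.73 in Mock plants. In GL1-GR at 4 h its change was -0.08.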

How the data were processed

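Per the labels, RNA was amplified with the NuGen Ovation system and hybridised to Affymetrix ATH1 arrays. The authors deposited 1 log2 value per probe set and array, computed with GCRMA through affylmGUI; the version and the number of normalization runs are not given in the sources used here. The lowest value differed between the 4 sets of line and time (1.97 to 2.26).

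Groups came from the sample labels, and gene names from the platform annotation and the RefSeq table of TAIR10.1. The 64 AFFX probe sets were left out. For the 4 h tests, a probe set had to exceed the 40th percentile of an array on 2 arrays or more (16349 probe sets, all 234 members included). All 22 arrays counted for this, so a probe set could pass through the 24 h arrays that the rule used. DEX and Mock were compared with limma 3.58.1 in R 4.3.3 (lmFit, eBayes) on the 6 arrays of a line, after testing on simulated data. The residual SD (root mean square) was 0.213 for GL1-GR and 0.548 for GL3-GR. P-values were two-sided and adjusted by the Benjamini-Hochberg method. The number of arrays limits the precision. Of 231 array pairs, 0 were identical.

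Named members were the 12 risers and 12 fallers with 1 gene and the largest smaller-of-both-lines change at 24 h, probe sets without a gene among the first 5 of each, members called at 4 h (0) or separated in the same direction in both lines at 4 h, members of the gene lists, and the probe sets nearest the threshold. Others were chosen after their values were seen. The members and the lists were chosen with earlier results of these data known. Alternatives were other scalings, filters, fits and tests, and leaving out each array.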

Additional observations from a re-analysis of the deposited data

Results flagged for a closer look

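For 3 named members, the arrays separated fully in one direction at 4 h and in the other at 24 h within the same line. Over all members this was so for 4 in GL1-GR (1.71%, with 0.41% of all tested) and 6 in GL3-GR (2.56%, with 1.28%). The differences between times were not tested, and the 24 h direction was fixed by the choice of members. That choice also made full separation at 24 h more frequent among members than among all tested. The shares of members and of all tested are therefore not alike, and nothing is read from them. AT1G70620 was lower with DEX in GL3-GR at 4 h, at 5.19, 5.12 and 4.97 against 5.67, 5.71 and 5.75 with Mock (-0.62), and higher at 24 h (0.85). *ETFQO* in GL1-GR had a change of -0.40 at 4 h, where the nearest DEX and Mock values were equal to 2 decimals, and 0.50 at 24 h. *PGM* in GL1-GR was higher with DEX at 4 h (0.28), at 6.48, 6.45 and 6.72 against 6.38, 6.27 and 6.16 with Mock, and lower at 24 h (-0.68). None of the 3 passed the adjusted test at 4 h (adjusted p 0.960, 0.714 and 0.651 by limma). Between the lines, 3 members, named after their values were seen, separated fully at 4 h with DEX higher in GL1-GR and lower in GL3-GR (1.28%, with 0.41% of all tested), and 0 the other way (0.122% of all tested). This difference was not tested either. The changes in GL1-GR and GL3-GR were 0.21 and -0.82 for the riser AT2G39580, 0.44 and -0.77 for the riser 247095_at, and 0.32 and -0.98 for the faller 263582_at.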

How the results depend on the processing

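The membership depended on single arrays. Leaving out each array of 24 h gave 162 to 360 members, the extremes without GL3-GR DEX sample 1 and without GL3-GR DEX sample 2, each of which leaves that group with 1 array. Of the 234 members, 126 to 208 met the rule again, the fewest without GL1-GR Mock sample 3. Quantile normalization of all arrays gave 162 members (152 shared), centring each array on its median 241 (222 shared, with 124 risers and 117 fallers, against 106 and 128), and no level condition 323. The count of members called at 4 h was 0 in GL1-GR under every alternative run with limma and by the methods' t-test after adjustment. In GL3-GR it was 0 under every alternative except the fit of all 22 arrays, whose spread is too small for this set. That fit called 2, AT5G28630 (adjusted p 0.0011 by limma) and 255284_at (adjusted p 0.0466), or 0.855% of members beside 0.893% of all tested. The smallest adjusted p of a member in GL3-GR under the other alternatives was 0.176 by limma. The sample number as a replicate block also called 0 members in each line; at an unadjusted p under 0.05 it gave 35 members in GL1-GR (15%, with 7.68% of all tested) and 17 in GL3-GR (7.26%, with 3.79%), against 23 (9.83%, with 7.29%) and 13 (5.56%, with 3.41%) without it. In their labels, DEX and Mock samples of 1 number share only that number. Deviations of same-numbered arrays of 4 h correlated at 0.018 to 0.104 in GL1-GR and 0.067 to 0.281 in GL3-GR. Arrays with other numbers correlated at -0.116 to 0.069 in GL1-GR and -0.347 to 0.258 in GL3-GR. Whether samples of 1 number share more than that was not tested. Leaving out each array, the median 4 h change of risers was 0.004 to 0.029 in GL1-GR and -0.242 to 0.279 in GL3-GR. That of fallers was -0.031 to 0.026 in GL1-GR and -0.502 to -0.176 in GL3-GR, and -0.149 there after quantile normalization. Of 576 values of named members at 4 h under alternatives, 567 stayed within 1 SD of the arrays and 9 moved further, 2 of these with a changed sign. This count says little about stability. The fit of all 22 arrays keeps the group means, and leaving out 1 of 3 arrays cannot, rounding aside, move a change by 1 SD. Changes of sign within 1 SD were not counted.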
